A study of Homo sapiens with 21 samples.

Results

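The 9 libraries of HepG2 cells exposed to the 3 lowest caffeine doses, 0.01, 0.1 and 1 µM, were pooled and compared with the 3 libraries without caffeine. These 12 libraries, of 21 in the series, were chosen by the dose in the sample labels, and the 3 doses are called trace doses here. HepG2 is an established human liver cancer line that keeps much of the hepatocyte programme. Every group, the controls included, was moved from medium with serum to fresh serum-free DMEM for 6 h, so the lack of serum is shared and the dose is the labelled difference. Each dose has 3 libraries described as biological replicates, and no label ties a replicate number to a shared culture, plate or day. The design text mentions coumarin where the controls' caffeine dose would stand. The 0 µM caffeine of the sample labels was used. The question was which gene functions separated the controls from all trace libraries, and which of these differences could equally be a shift of the 3 controls.

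Caffeine, a methylxanthine, is an antagonist of adenosine receptors, and at higher concentrations it inhibits cyclic nucleotide phosphodiesterases and opens some calcium channels of the endoplasmic reticulum (ER). In liver cells it is broken down by cytochrome P450 enzymes whose genes are controlled by the aryl hydrocarbon receptor. All trace groups were compared with the same controls, so a difference shared by the 3 doses and a difference that lies in the controls are the same quantity here, and they cannot be told apart by this comparison alone. What the files can show is whether the trace doses differed among themselves, how much rested on 1 control, and which properties the separating genes had in common.

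Total counts of the 12 libraries ran from 28043623 to 34717216. Levels below are in CPM, read counts relative to the total of a library after scaling by the trimmed mean of M-values (TMM). Of the 12 hepatocyte and hepatoblast markers, 11 were well above 1 CPM and TM4SF4 was not, and their summed level was 29670 to 31780 CPM by library totals in the controls and 27660 to 34120 in the trace libraries. The 3 endothelial markers in the table summed to at most 0.271. Of 8 fibroblast and stellate markers, 6 stayed under 1 CPM, among them the fibrillar collagens COL1A2 and COL3A1 with no count in any of the 12. The exceptions were ACTA2 (56.9 to 70.2 CPM in the trace libraries) and PDGFRB (4.32 to 5.53). The bile duct and other epithelium list summed to 741 to 815 in the controls and 605 to 775 in the trace libraries, from KRT19, SOX9, EPCAM and CDH1. The kidney and cervix list summed to 31.6 to 33.8 and 29.7 to 43.7. The blood and immune list summed to 1232 to 1400 in the controls and 1067 to 1407 in the trace libraries, nearly all of it from lysozyme (LYZ), while the leukocyte antigen PTPRC had at most 1 count. Transcripts of the mitochondrial genome took 6.94 to 7.86% of counts in the controls but 4.96 to 14.2% in the trace libraries. The highest shares were in 1 µM replicate 3 and, at 11.7%, in 0.01 µM replicate 1, which stood apart from the other libraries.

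Between the pooled trace doses and 0 µM, 1538 of 17468 tested genes (8.8%) passed edgeR's quasi-likelihood test at a Benjamini-Hochberg adjusted p of 0.05. Of these, 864 (4.95% of genes tested) were higher and 674 (3.86%) lower at the trace doses, and 4826 genes (27.6%) had an unadjusted p under 0.05. The differences were small: the median size was 0.44 on the log2 scale, and 550 of the 1538 reached 0.5. The smallest adjusted p was 0.0168, so no gene passed at 0.01. In 716 of the 1538 genes (46.6%), all 9 trace libraries lay on one side of all 3 controls. Across all genes tested, 1121 (6.42%) were separated in this way, 620 above the controls (3.55%) and 501 below (2.87%). With library totals in place of TMM scaling, 899 genes were higher and 342 lower.

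The calls depended on 0 µM replicates 1 and 2. Without 0 µM replicate 1 no gene passed the same edgeR test (2853 had an unadjusted p under 0.05), and without 0 µM replicate 2 none passed either (3405 unadjusted). Without 0 µM replicate 3, 1043 genes passed. All 1538 genes kept their direction in each of these 3 fits, with a median change of 0.916, 0.976 and 1.11 times the original. Each of these fits shares the remaining controls and all 9 trace libraries with the fit that chose the 1538 genes. The kept direction and size are therefore largely built in and are no independent support for the calls. Of the trace libraries, leaving out 0.1 µM replicate 3 raised the count to 2686, and it was 665, 741 and 765 without 1 µM replicate 2, 0.1 µM replicate 2 and 0.1 µM replicate 1. Of the 2 libraries of high mitochondrial share, leaving out 0.01 µM replicate 1 gave 1954 and leaving out 1 µM replicate 3 gave 1957. Replicate 1 lay outside the range of the 9 trace libraries, on the side that the direction of the call gives, in 93.6% of the 1538 genes, replicate 2 in 87.0% and replicate 3 in 55.1%. When the 12 libraries were fitted alone, so that the higher doses no longer helped to estimate the spread, no gene passed (3818 unadjusted, smallest adjusted p 0.0703). Every call named below was lost when 0 µM replicate 1 or replicate 2 was left out and when the 12 libraries were fitted alone, and held its direction there.

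**Figure D1:**
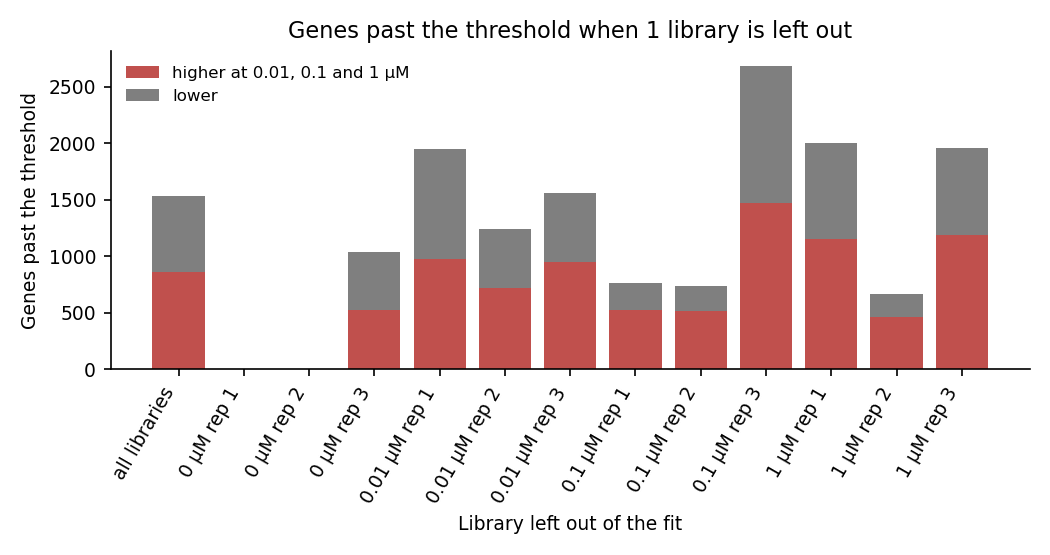
Number of genes past an adjusted p of 0.05 (y axis) in edgeR's quasi-likelihood test of 0.01, 0.1 and 1 µM together against 0 µM, with all libraries or with the library on the x axis left out, split into genes higher and lower at the trace doses. The bars for 0 µM replicates 1 and 2 are at 0, and the tallest bar, without 0.1 µM replicate 3, is at 2686 genes.

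Genes higher at the trace doses had long transcripts, and genes lower had short ones. The median length of the longest annotated transcript was 7360 bases for the 864 higher genes, 1916 for the 674 lower genes and 3210 for all tested genes. Of the 807 higher genes with an annotated length, 546 exceeded 6000 bases and 12 were under 1500 bases. Of the 648 lower genes, 20 exceeded 6000 bases and 212 were under 1500. The share of genes called higher went from 0.353% at 1000 to 1500 bases to 32.7% above 12000 bases, and the share called lower from 10.3% to 0.372% over the same classes. The median log2 fold change ran from -0.30 in transcripts of 500 to 1000 bases to 0.30 above 12000. Across 13102 genes of at least 1 CPM, Spearman's rho between fold change and length was 0.575, and rho with GC content was -0.323. These describe genes, which share the same 12 libraries and are not independent. The median GC content was 44.4% in the higher genes, 55.8% in the lower and 49.0% in all.

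**Figure D2:**
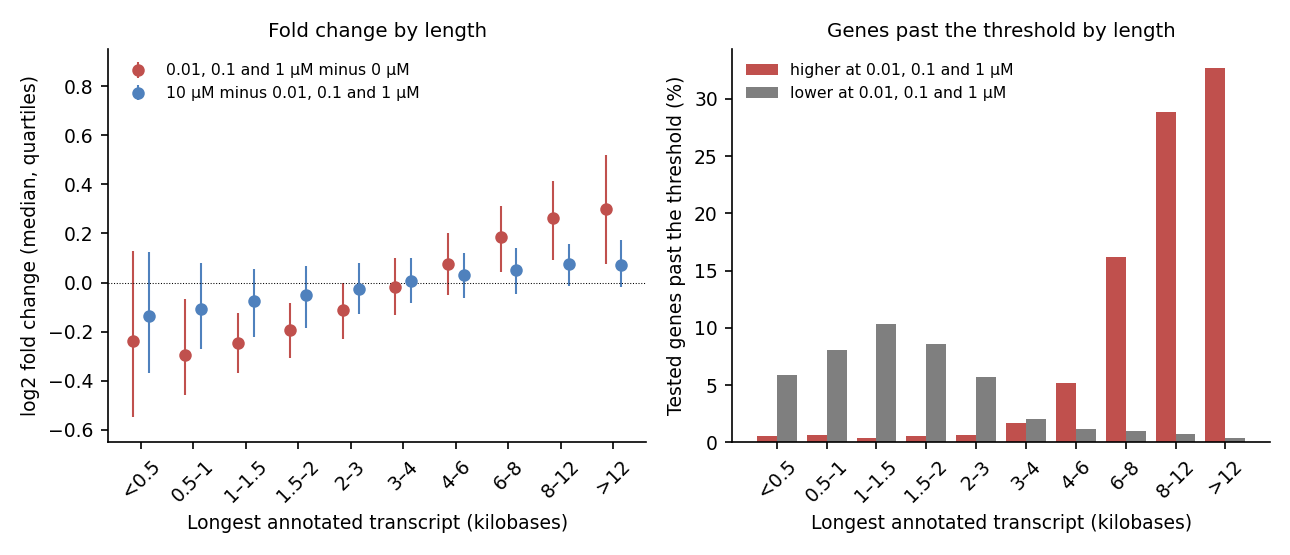
Left, median log2 fold change with quartiles (y axis) of genes of at least 1 CPM by the length of the longest annotated transcript (x axis, kilobases), for the trace doses minus 0 µM and for 10 µM minus the trace doses. Right, percentage of tested genes past the threshold in each length class, higher or lower at the trace doses. Both contrasts go from below 0 in short to above 0 in long transcripts, and the share of higher genes reaches 32.7% in the longest class.

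The balance between long and short transcripts was then read in each library, as the median log2 level of 2259 genes over 6000 bases minus that of 1443 genes under 1500 bases, each gene taken relative to its mean. It was -0.57, -0.49 and -0.32 in 0 µM replicates 1, 2 and 3. In the trace libraries it ran from -0.35 to 0.22 with a median of 0.04. The lowest trace library, 0.1 µM replicate 3, lay between control replicates 2 and 3, so the groups overlapped in 1 library, and the other 8 trace libraries lay above all controls. All 9 libraries at higher doses also lay above the controls. The 10 µM libraries had 0.12 to 0.17, the 100 µM libraries -0.15 to 0.13 and the 1000 µM libraries 0.19 to 0.55. Both the lowest and the highest trace library were at the same dose, 0.1 µM.

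**Figure D3:**
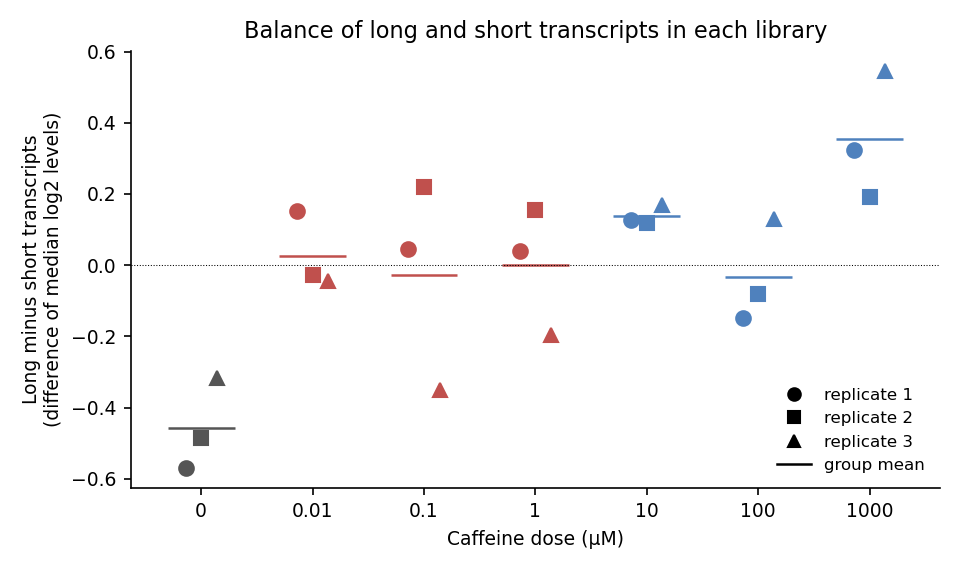
Median log2 level of genes over 6000 bases minus that of genes under 1500 bases (y axis) in each of the 21 libraries by caffeine dose (x axis, µM), with lines at group means. The 3 controls sit lowest, from -0.57 to -0.32, and 1 trace library, 0.1 µM replicate 3 at -0.35, falls among them.

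Transcripts that encode large proteins of chromatin and kinase signalling were higher at the trace doses. The list was chosen with earlier results of these data known and holds genes with long transcripts, so its direction is no independent evidence. Of its 30 genes, 23 (76.7%, against 4.95% of all genes) rose, none fell and all 30 had a positive change, with a median of 0.56 against -0.02 for all genes. The list mean, relative to the controls' mean, was -0.09, 0.08 and 0.01 in the controls and 0.20 to 0.80 in the trace libraries. No trace library reached the controls. Without 0 µM replicate 3, 14 of the 30 passed, and leaving out 1 trace library gave 18 to 29. Their median longest transcript was 12450 bases.

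The list holds histone-modifying enzymes and their partners. ASH1L, a histone methyltransferase on chromosome 1 (GRCh38, 155335268 to 155562807, minus strand), had 18.7, 23.9 and 23.4 CPM in the controls and 27.5 to 48.1 CPM in the trace libraries with a median of 39.8. The groups did not overlap, and the log2 fold change of 3 against 9 libraries was 0.86 ± 0.15 (SE), adjusted p 0.0182 in edgeR's quasi-likelihood test. Here and below, this SE rests on the spread in the fit of all 21 libraries, higher doses included. KMT2A, KMT2C and KMT2D, the MLL-family methyltransferases of histone H3, rose by 0.72 ± 0.15, 0.62 ± 0.14 and 0.72 ± 0.17. KMT2D was at 64.7, 82.1 and 71.8 CPM in the controls and at 98.8 to 154 CPM in the trace libraries. The acetyltransferase KAT6A rose from 21.1, 29.2 and 25.6 CPM to 30.9 to 56.5 CPM, again without overlap (0.90 ± 0.17, adjusted p 0.0208). EP300, the coactivator and acetyltransferase p300, rose by 0.78 ± 0.18, whereas its paralog CREBBP was at 0.62 ± 0.19 with an adjusted p of 0.0542 and did not pass. NCOA3, a nuclear receptor coactivator, was at 58.9, 65.7 and 66.2 CPM in the controls and 74.5 to 117 CPM in the trace libraries (0.62 ± 0.11, adjusted p 0.0182). SPEN, a transcriptional corepressor, rose by 0.90 ± 0.20.

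The chromodomain remodellers CHD1, CHD2, CHD6, CHD7, CHD8 and CHD9 rose by 0.40 to 0.65, and CHD4, the NuRD remodeller, had 0.12 ± 0.07 (adjusted p 0.283). Among the phosphatidylinositol kinase-related proteins, SMG1, the kinase that starts nonsense-mediated decay, had 102, 112 and 109 CPM in the controls and 125 to 244 CPM in the trace libraries, without overlap (0.75 ± 0.17, adjusted p 0.0228). MTOR, the growth kinase, rose by 0.38 ± 0.10 and the histone acetyltransferase scaffold TRRAP by 0.48 ± 0.12. ATM, ATR and PRKDC, the DNA damage kinases, had changes of 0.36, 0.38 and 0.39 with adjusted p from 0.0542 to 0.123 and did not pass. The giant ubiquitin ligases HUWE1, UBR4, HERC1 and BIRC6 rose by 0.55 to 0.61, and the cytoskeletal linkers MACF1 and DST by 0.61 and 0.64.

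Ribosomal protein genes moved the other way. Of 83 tested genes of the cytosolic ribosome (RPL and RPS), 21 fell (25.3%, against 3.86% of all genes), none rose and 80 had a negative change, with a median of -0.39. The list mean relative to the controls' mean was 0.11 and 0.12 in control replicates 1 and 2 but -0.23 in replicate 3. It ran from -0.60 to -0.09 in the trace libraries. Replicate 3 thus lay among the trace libraries, and so the groups overlapped. The count of 21 was 5 without 1 µM replicate 2, 0.1 µM replicate 1 or 0.1 µM replicate 2, and 36, 33 and 32 without 0.01 µM replicate 1, 0.1 µM replicate 3 and 1 µM replicate 1. RPS6, a 40S subunit protein, was at 2061, 1974 and 1889 CPM in the controls and at 1228 to 1750 CPM in the trace libraries, with no overlap (-0.44 ± 0.09, adjusted p 0.0216). Of the 83, 2 were separated in this way, RPS6 and RPL8, a share near the 2.87% of all genes. RPS9 was at 793, 820 and 586 CPM in the controls and at 353 to 653 CPM in the trace libraries, so control replicate 3 fell inside the trace range (-0.61 ± 0.14, adjusted p 0.0228). RPS29 had 130, 209 and 89.9 CPM in the controls against 57.0 to 115 CPM.

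The share of all counts on ribosomal protein genes was 6.41 ± 0.61% in the controls (SD, n = 3) and 5.23 ± 0.48% in the trace libraries (SD, n = 9). An exact two-sided permutation test over the 220 divisions gave p 0.00909, and 0.0545 after adjustment over 6 library measures, which did not pass. The smallest p this test can give is 0.00455. The other 5 measures (total counts, mitochondrial share, share of the 10 most abundant genes, genes with a count and share of unannotated features) had adjusted p from 0.45 to 0.741. With bulk RNA, a smaller number of cells of one kind and less RNA per cell cannot be told apart.

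Nuclear genes of the mitochondrion fell as well. Of 77 mitochondrial ribosomal protein genes, 24 fell (31.2%, against 3.86% of all genes) and none rose, with a median of -0.31. MRPL20, of the large mitochondrial subunit, went from 126, 123 and 102 CPM to 66.0 to 97.3 CPM without overlap (-0.50 ± 0.09, adjusted p 0.0208). Of 52 NDUF genes, which encode subunits and assembly factors of respiratory complex I, 12 fell (23.1%, against 3.86% of all genes, median -0.34). NDUFC1 was at 36.9, 44.4 and 32.2 CPM and then 21.5 to 29.5 CPM (-0.60 ± 0.12), and NDUFB11 fell by 0.54 ± 0.10, both without overlap. Of 39 other nuclear genes of the chain and ATP synthase, 13 fell (33.3%, against 3.86% of all genes, median -0.34). Among them were COX4I1 of complex IV (-0.49 ± 0.11) and ATP5F1E of the ATP synthase (-0.79 ± 0.18). ATP5F1E had 270, 342 and 193 CPM in the controls and 115 to 213 CPM in the trace libraries, so replicate 3 lay inside the trace range again. Leaving out 1 trace library gave 6 to 36 lower genes in the mitochondrial ribosomal list, 3 to 19 in the NDUF list and 4 to 17 in the other respiratory list, each lowest without 1 µM replicate 2. The 13 protein genes of the mitochondrial genome held no call in edgeR, with 0 at an unadjusted p under 0.05 and 0 in DESeq2, and their median change was 0.02. Their mean by library ran from -0.76 to 1.08 in the trace libraries around -0.14 to 0.26 in the controls.

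**Figure D4:**
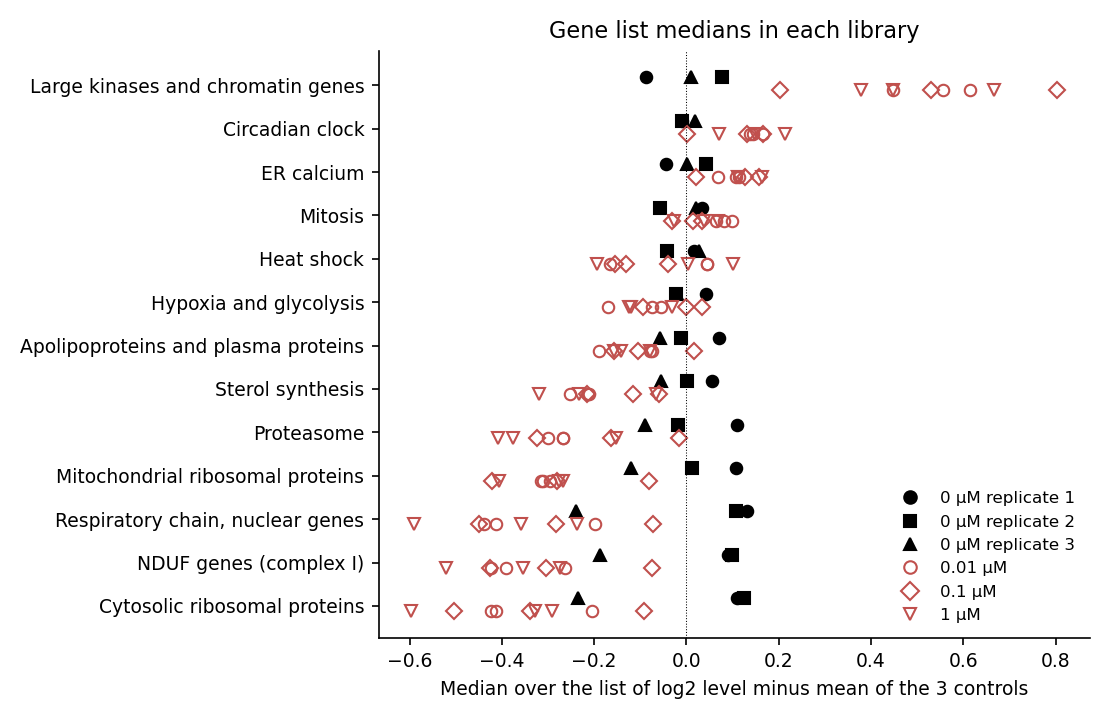
Mean over each gene list of the log2 level minus the mean of the 3 controls (x axis) in the 12 libraries. The title and axis label call these means medians. Controls are filled symbols by replicate, and trace libraries are open symbols by dose. Large kinases and chromatin genes lie right of all controls in all 9 trace libraries, while in the ribosomal and respiratory lists 0 µM replicate 3 lies among the trace libraries.

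Other genes with short transcripts fell too. FTL, the ferritin light chain that stores iron (chromosome 19, 48965301 to 48966878, plus strand), was at 7880, 7968 and 7059 CPM in the controls and at 4950 to 6684 CPM in the trace libraries. The groups did not overlap (-0.46 ± 0.08, adjusted p 0.0208). The spliceosomal proteins SNRPD2, an Sm core protein, and LSM4, an Sm-like protein, fell by 0.66 ± 0.11 and 0.62 ± 0.11 (adjusted p 0.0182 each). SNRPD2 had 124, 156 and 101 CPM in the controls and 72.8 to 92.8 CPM in the trace libraries. Of 31 proteasome genes, 4 fell (12.9%, against 3.86% of all genes: PSMA7, PSMB4, PSMB6 and PSMC3) and all 31 changes were negative, with a median of -0.22. The count of 4 was 1 to 11 with a trace library left out, lowest without 1 µM replicate 2 and highest without 1 µM replicate 1. The 18 SR splicing factors, whose median transcript is 3660 bases, had a median of -0.04 and 1 call, SRSF9 (-0.56 ± 0.16). Their share lower was 5.56%, against 3.86% of all genes. Among single genes with the largest falls were HES4, a transcriptional repressor of the Notch pathway (40.3, 43.0 and 28.8 against 12 to 28.7 CPM, -0.89 ± 0.19), and SAC3D1 (50.9, 54.9 and 39.4 against 21.4 to 38.1 CPM, -0.75 ± 0.13). Genes named by largest fall or smallest p had to be without overlap to be chosen. COA6 and NDUFAF8, assembly factors of complexes IV and I, fell by 0.77 ± 0.20 and 0.74 ± 0.20.

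Sterol synthesis was the other list, of 47 with a value, whose mean in each library separated the groups. It was at 0.06, 0.00 and -0.06 in the controls and at -0.32 to -0.06 in the trace libraries, a gap of under 0.01 between control replicate 3 and 0.1 µM replicate 3. Of 24 genes 6 fell (25%, against 3.86% of all genes): MVK and FDPS of the mevalonate arm, FDFT1 at the branch to squalene, and EBP, TM7SF2 and NSDHL of the later steps. MVK, mevalonate kinase (chromosome 12, 109573255 to 109598117, plus strand), had 59.8, 64.9 and 57.1 CPM in the controls and 36.1 to 54.0 CPM in the trace libraries, without overlap (-0.43 ± 0.09, adjusted p 0.0216). Without 1 µM replicate 2, 0.1 µM replicate 1 or 0.1 µM replicate 2, 3 of the 24 fell. The 6 genes that fell had a median longest transcript of 2056 bases.

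Other lists held calls in both directions. Among 38 plasma protein genes, APOB, the structural protein of low-density lipoprotein with a transcript of 14121 bases (chromosome 2, 21001429 to 21044073, minus strand), rose from 5089, 5222 and 5258 CPM to 6309 to 11770 CPM (0.67 ± 0.15, adjusted p 0.0219). The coagulation factor F5, of 7039 bases, rose by 0.72 ± 0.17. APOA1, of high-density lipoprotein, AFP, alpha-fetoprotein, and RBP4, the retinol carrier, fell. Of the 38, 2 thus rose (5.26%, against 4.95% of all genes) and 3 fell (7.89%, against 3.86%). APOA1 was at 2090, 1680 and 1448 CPM in the controls and 752 to 1624 CPM in the trace libraries, overlapping (-0.63 ± 0.16), and AFP at 3779, 3315 and 3396 against 2386 to 3013 CPM, not overlapping (-0.40 ± 0.08). ALB, albumin, had -0.04 ± 0.12 (adjusted p 0.867).

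Among 26 mitosis genes, the proliferation marker MKI67 (12678 bases), the kinetochore motor CENPE and the spindle checkpoint kinases BUB1 and BUB1B rose. BIRC5 and AURKB, of the chromosomal passenger complex, and CENPA, the centromeric histone, fell. Thus 4 rose (15.4%, against 4.95% of all genes) and 3 fell (11.5%, against 3.86%). MKI67 was at 261, 297 and 299 CPM in the controls and at 339 to 601 CPM in the trace libraries (0.74 ± 0.18), and AURKB (1254 bases) at 65.5, 66.8 and 60.6 against 47.4 to 60.3 CPM (-0.30 ± 0.07). These 2 genes of dividing cells moved in opposite directions, each without overlap. Among 20 ER chaperone genes, SEL1L of ER-associated degradation rose (5%, near the 4.95% of all genes). SDF2L1, CRELD2, MANF and XBP1 fell (20%, against 3.86% of all genes). HSPA5, the main ER chaperone, had -0.11 ± 0.06 (adjusted p 0.254). Of 16 genes of nonsense-mediated decay, 3 rose (18.8%, against 4.95% of all genes), among them SMG1 and the endonuclease SMG6. MAGOH of the exon junction complex, 1 of the 16, fell (6.25%, against 3.86%). Of 24 p53 targets, 4 fell (16.7%, against 3.86% of all genes: BAX, BBC3, FDXR and PHLDA3) and none rose, while 12 changes were positive and 12 negative. CDKN1A, the p21 inhibitor, had -0.16 ± 0.07 (adjusted p 0.131).

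Of 19 circadian clock genes, 4 rose (21.1%, against 4.95% of all genes) and none fell, with a median of 0.19, and 2 rose without 0.1 µM replicate 1 or 0.1 µM replicate 2. CLOCK, the activator (chromosome 4, 55427903 to 55547138, minus strand, transcript of 10304 bases), had 14.7, 15.7 and 16.6 CPM in the controls and 17.1 to 29.8 CPM in the trace libraries, without overlap (0.58 ± 0.13, adjusted p 0.0222). The repressors PER2, PER3 and NR1D2 rose by 0.42 ± 0.11, 0.47 ± 0.14 and 0.41 ± 0.11, PER2 alone of the 3 without overlap. PER1, CRY1 and BMAL1, in the same loop, had 0.19, 0.01 and 0.23 with adjusted p from 0.146 to 0.948. The list mean by library was -0.01, -0.01 and 0.02 in the controls and 0.00 to 0.21 in the trace libraries. The 0.1 µM replicate 3 library lay inside the control range.

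Lists near the known actions of caffeine held 1 to 3 calls each, all higher. CYP1A1, the classical target of the aryl hydrocarbon receptor, was at 45.6, 45.5 and 42.7 CPM in the controls and at 33.7 to 59.7 CPM in the trace libraries, on both sides of them (0.04 ± 0.09, adjusted p 0.796). AHR, the receptor itself, rose by 0.38 ± 0.11 with a transcript of 6958 bases and overlapping groups, and was 1 call of 9 in its list (11.1%, against 4.95% of all genes). ADORA2B, an adenosine receptor, had 23.1, 23.8 and 20.3 CPM against 16.3 to 21.1 CPM (-0.23 ± 0.08, adjusted p 0.09). Of 14 adenosine genes, 3 rose (21.4%, against 4.95% of all genes): the nucleotidase NT5C2, the ADA-binding peptidase DPP4 and ENTPD5. The adenosine list as a whole had 7 positive and 7 negative changes, with a median of 0.01. Of 13 phosphodiesterases, 2 rose (15.4%, against 4.95% of all genes), PDE8A (0.22 ± 0.07) and PDE11A (0.46 ± 0.14). Of 16 genes of the cAMP response and gluconeogenesis, 1 rose (6.25%, near the 4.95% of all genes), CREB1 (0.32 ± 0.08). After the length and GC adjustment described below, none of these 4 lists held a call.

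The ER calcium list held 12 tested genes, and the 3 inositol trisphosphate receptors rose in edgeR (25%, against 4.95% of all genes), while DESeq2 called 5 of the 12 higher. In edgeR ITPR1 rose by 0.47 ± 0.13, ITPR2 by 0.56 ± 0.13 and ITPR3 by 0.43 ± 0.13. ITPR2 went from 86.1, 88.5 and 93.3 CPM to 98.2 to 159 CPM without overlap, and the groups overlapped in the other two genes. Their longest transcripts are 9870 to 11405 bases. After the length and GC adjustment described below, the 12 genes of this list held 1 call higher and 1 lower (median 0.05). With length alone the list held 0. In edgeR no call was made in 19 heat shock genes (median -0.03, or 0.01 with library totals; 4 at an unadjusted p under 0.05) or in 29 hypoxia and glycolysis genes (median -0.07; 7 unadjusted). DESeq2 called 1 higher and 1 lower in each. GAPDH had -0.03 ± 0.09 (adjusted p 0.841).

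**Figure D5:**
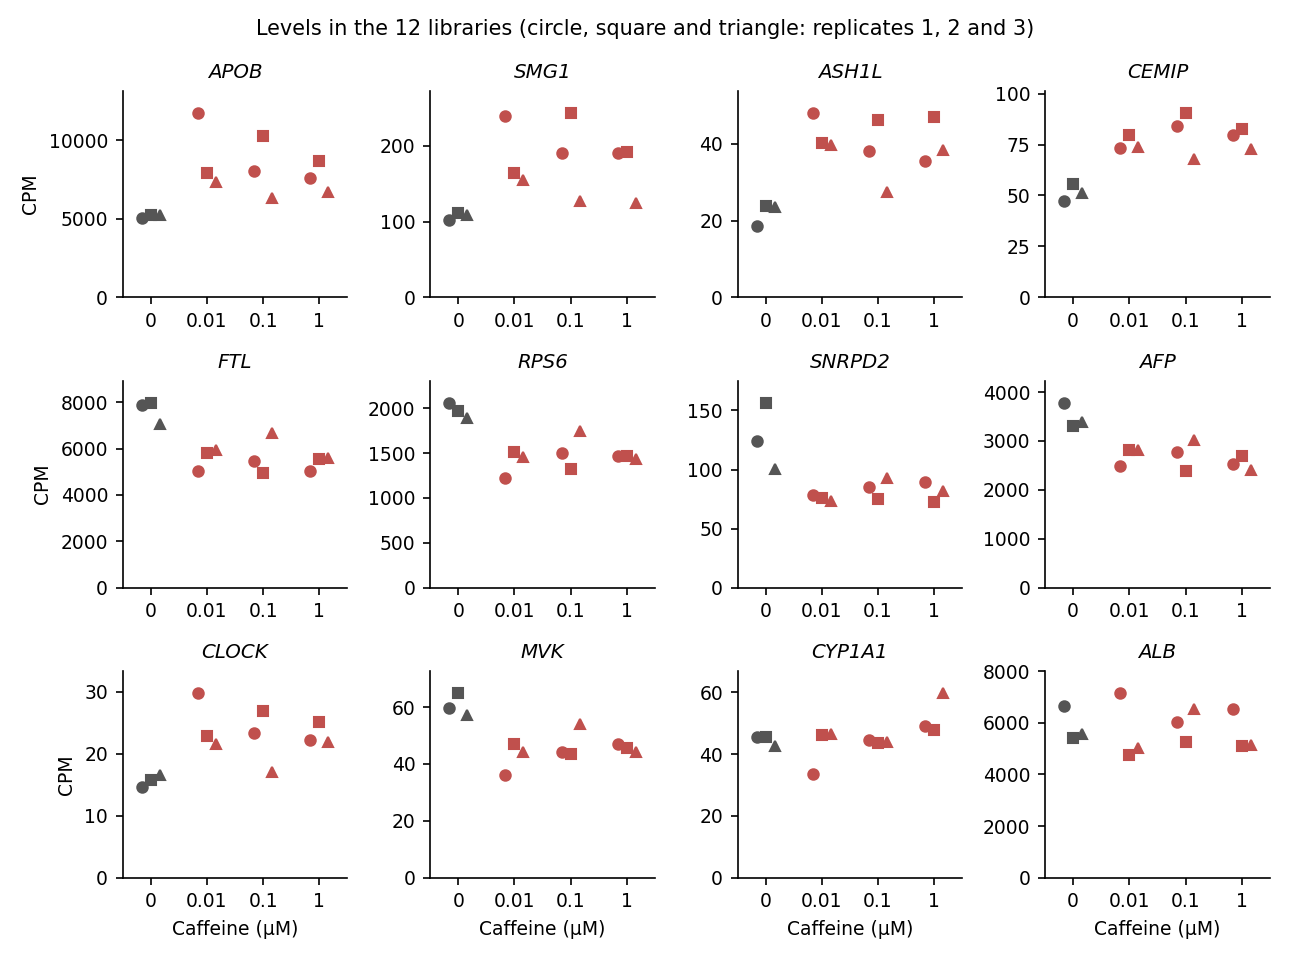
CPM (y axis, from 0) of 12 genes in the 3 libraries at each of 0, 0.01, 0.1 and 1 µM caffeine (x axis), with circle, square and triangle for replicates 1, 2 and 3. APOB, SMG1, ASH1L, CEMIP and CLOCK lie above and FTL, RPS6, SNRPD2, AFP and MVK below the controls in all 9 trace libraries, with no order by dose, while CYP1A1 and ALB overlap them. For genes named by largest change or smallest p, such as CEMIP, this lack of overlap was a condition of their choice.

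The trace doses could not be told from one another. No gene passed the F test among 0.01, 0.1 and 1 µM in edgeR (621 of 17468 unadjusted, 3.56%; DESeq2 called 7), and none passed for the slope from 0.01 to 1 µM (414 unadjusted, 2.37%). Each dose set against the shared controls gave 864 genes at 0.01 µM, 0 at 0.1 µM (2651 unadjusted, 15.2%) and 0 at 1 µM (3980 unadjusted). Their values for the large chromatin list were medians of 0.56, 0.51 and 0.50, and for the cytosolic ribosomal list -0.35, -0.31 and -0.44. By gene, SMG1 had 0.79, 0.80 and 0.65, FTL -0.45, -0.42 and -0.50, CLOCK 0.66, 0.52 and 0.56 and CEMIP 0.56, 0.65 and 0.61 at 0.01, 0.1 and 1 µM. CEMIP encodes a hyaluronan-binding protein and had the smallest p among the higher genes named here (47.5, 55.7 and 51.1 CPM in the controls, 68.0 to 90.6 CPM in the trace libraries, 0.61 ± 0.09, adjusted p 0.0168).

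The next dose, 10 µM, was set against the trace doses without the controls. No gene passed in edgeR (1489 of 17468 unadjusted, 8.52%; DESeq2 called 9). The median change again went from negative in short to positive in long transcripts, at a smaller size. It was -0.11 at 500 to 1000 bases and 0.07 above 12000, with a Spearman's rho of 0.261 across the 13102 genes. The trend with GC content had the opposite sign, with a rho of 0.136 here against -0.323 in the main comparison. This contrast shares the trace libraries with the main comparison. The large chromatin list had a median of 0.21 and the cytosolic ribosomal list -0.21. CYP1A1 was at 0.51 between 10 µM and the trace doses, where it did not pass.

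An adjustment for length and GC content was added after the trend with length had been seen. With a smooth curve of level on transcript length and GC content removed from each library, 849 genes passed (4.86%), 409 higher (2.34%) and 440 lower (2.52%). Of these, 529 were among the 1538, all in the same direction, which is 34.4% of the first set and 62.3% of the second. The calls again rested on single controls: 0 without 0 µM replicate 1 (2323 unadjusted), 4 without replicate 2 and 431 without replicate 3. The median of the large chromatin list went from 0.56 to 0.24 with 9 of 30 higher, or 3 with length alone. The cytosolic ribosomal list went from -0.39 to -0.22 with 7 of 83 lower. The mitochondrial ribosomal list had 10 lower of 77 (median -0.13) and the NDUF genes 5 of 52 (-0.21). The other respiratory genes had 5 of 39 (-0.21), or 2 with length alone. Sterol synthesis had 2 lower of 24 (-0.12), the circadian list 2 higher of 19 (0.13), or 0 with length alone, and the p53 targets 1 higher and 0 lower of 24 (-0.06). The plasma protein list, at -0.15 before, was at 0.01, and the snoRNA host genes went from -0.29 to -0.11. APOB (0.34, adjusted p 0.0384) and SMG1 (0.40, adjusted p 0.0384) still rose, and FTL still fell (-0.22, adjusted p 0.0323). MKI67 (0.46, adjusted p 0.0789), AFP (-0.31, adjusted p 0.0516), F5, AHR, MTOR and AURKB no longer passed. With length alone, neither the plasma protein nor the nonsense-mediated decay list, which hold APOB and SMG1, kept a call.

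Some genes changed against the trend with length and stood out after the adjustment. HEBP2, a heme-binding protein whose longest annotated transcript has 10014 bases, was at 59.3, 52.6 and 47.9 CPM in the controls and 26.2 to 44.3 CPM in the trace libraries (-0.58 before and -0.83 after, adjusted p 0.0199). EXOSC6, a subunit of the RNA exosome (5153 bases), went from 58.3, 55.5 and 52.0 CPM to 28.2 to 46.9 CPM (-0.50 before, -0.61 after). The zinc finger gene ZNF121 (7177 bases) was at 25.5, 24.7 and 24.3 CPM against 15.6 to 22.0 CPM (-0.36 before, -0.56 after, adjusted p 0.00712). In the other direction ZNF354B, a zinc finger gene of 2802 bases, rose from 3.44, 4.06 and 4.15 CPM to 4.89 to 8.08 CPM (0.64 before, 0.68 after). Only genes whose groups did not overlap were eligible here, so the lack of overlap in these 4 was a condition of their choice. The longest annotated transcript need not be the one expressed.

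Among the genes with the largest rises, several share sequence or exons with another gene, so their own change is uncertain. ZBED6 (1.28 ± 0.22) lies within ZC3H11A, RSC1A1 (1.25 ± 0.26) within DDI2, and SMG1P1 and PKD1P3 are pseudogene copies of SMG1 and PKD1. NCR3LG1, the ligand of the natural killer cell receptor NKp30, overlaps no other annotated gene (chromosome 11, 17351726 to 17377341, plus strand). It was at 17.6, 26.2 and 21.0 CPM in the controls and at 29.8 to 70.3 CPM in the trace libraries. Lack of overlap was a condition for naming the genes with the largest rises. The change of NCR3LG1 was 1.14 ± 0.21 (adjusted p 0.0208 in edgeR's quasi-likelihood test), and 0.97 after the adjustment (adjusted p 0.0181). MICAL3, an actin-oxidising enzyme, rose by 0.83 ± 0.15 and CPLANE1, a ciliogenesis protein, by 0.84 ± 0.16.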

How the data were processed

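Poly(A)-selected RNA of 21 HepG2 libraries was measured, 12 of them compared here. The values are raw counts, whole numbers for each gene in a single table that the authors deposited without normalizing it. HISAT2, DESeq2 and GRCh38 are named, without roles, in the submitters' processing notes, and the counting program, annotation and strand setting are not given in the sources used here. Because strand is unknown, overlapping genes are uncertain. Of the per-sample columns, 21 matched no sample and were not used. The table held 37637 features, of which 24852 IDs had a symbol and 4700 were unannotated.

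One edgeR 4.0.16 fit (R 4.3.3) over all 21 samples in 7 groups, with TMM scaling and a minimum count of 10, covered 17468 genes with 14 residual degrees of freedom (common biological coefficient of variation 0.163). The contrast was the mean of the 0.01, 0.1 and 1 µM groups minus 0 µM, in the quasi-likelihood test with Benjamini-Hochberg adjustment at 0.05. The standard error (SE) is the size of the log2 change over the root of F. Positions and lengths come from GENCODE release 29. Alternatives were DESeq2 1.42.0, other scalings, filters, sample sets and thresholds, a replicate block, left-out libraries, and, added after seeing the data, natural splines (5 degrees of freedom) on transcript length and GC content, removed from each library as offsets. Scripts were tested on simulated data. Replicate pairs differed beyond sampling noise (chi-square per gene 5.46 to 207), so each counted as 1 sample. P-values measure the spread between these samples, which may be technical.

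Genes named are, among those past the threshold with a symbol, a mean of at least 5 CPM and all 9 trace libraries on one side of the controls, from the 12 with the largest change and the 5 with the smallest p in each direction. Called members of the 48 lists (up to 4 each by p) and members named for their role, whether or not they passed, were added. The 8 largest in each direction after the length and GC adjustment were added under the same conditions, with the threshold applied to the adjusted test. Not all are printed. Further list members, such as RPL8, CENPA, CHD4, CREBBP, ATM and the other CHD genes, were named after their values were seen. Some results are not reported here. The members, lists and tests were chosen with earlier results of these data known.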

Additional observations from a re-analysis of the deposited data

Results flagged for a closer look

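For 14 of 166 values checked over the 9 trace libraries, 1 library lay far from the other 8, by a gap of about 0.5 of the whole range or more. Chance alone flags about 1 in 20 such groups. In 0.1 µM replicate 3, which had the lowest balance of long over short transcripts among the trace libraries, 8 genes stood apart: LSM4 at 118 CPM, FDPS at 194, TALDO1 at 215, BAX at 101, NDUFAF3 at 25, SLC25A1 at 110 and C15orf61 at 10.5 were high, and NT5C2 at 90.3 was low. In each of these the library lay toward the controls. In 0.01 µM replicate 1, CCDC85B at 19.2 CPM, NDUFAF8 at 16, FDXR at 73.0 and WTIP at 5.36 were low, away from the controls. BCAN was high in 1 µM replicate 3 (47.3 CPM) and POTEF, one of several near-identical copies, in 0.1 µM replicate 2 (37.5 CPM).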

How the results depend on the processing

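The pooled comparison gave 1595 genes with RLE scaling, 1542 with upper-quartile scaling, 1241 with library totals (899 higher and 342 lower), 1232 without a filter, 1717 with at least 10 counts in each of the 12 libraries and 1585 without mitochondrial genes. It moved more to 2506 with DESeq2, 367 with the 12 libraries and trace doses as 1 group, 0 with the 12 libraries alone (3818 unadjusted), 0 at an adjusted p of 0.01 and 550 with a log2 change of at least 0.5. After seeing the data, length and GC splines gave 849, length alone 262 and GC alone 2100, and the joint splines gave 0, 4 and 431 without control replicates 1, 2 and 3. Leaving out 1 library gave 0 to 2686 genes: 665 without 1 µM replicate 2, 741 and 765 without 0.1 µM replicates 2 and 1, and 2686 without 0.1 µM replicate 3.

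Members of lists past the threshold numbered 221. They were 0 with the 12 libraries alone, 51 with the trace doses as 1 group, 0 at an adjusted p of 0.01, 76 at a log2 change of 0.5, 102 with length and GC splines, 26 with length alone, 0, 0 and 65 with the splines and without control 1, 2 and 3, and 0 to 346 over the left-out libraries. The difference among the trace doses gave 13 genes without a filter, 1 with the 12 libraries alone, 7 with DESeq2, and 0 to 1 over the left-out libraries (483 to 2317 unadjusted). The slope stayed at 0 with the splines (479 unadjusted), its 1 alternative. For 10 µM against the trace doses, DESeq2 called 9, the splines 1, and leaving out a library 0 to 1 (417 to 2527 unadjusted).

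Whether the labels' replicate numbers pair the samples is not known. Of 18 same-numbered pairs, 9 correlated above 0.1 (median 0.104, from -0.27 to 0.37), and the other pairs had a median of -0.045. With the replicate block 852 genes and 120 list members passed.

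Of 254 named genes past the threshold, none passed without control 1 or 2, and 150 passed with the block. SLC25A1, MRPL36 and MRPL41 reversed under the splines: to 0.0427, 0.0128 and 0.0968 (log2) without control 1, and SLC25A1 to 0.00033 without control 2.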
